A study of Mus musculus with 18 samples.

Results

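The genes described here are the numbered zinc finger protein genes of the mouse, those whose symbol is Zfp followed by a number, expressed in basophils before and after an antigen signal through IgE. Of 56413 genes in the deposited table, 390 carried such a symbol once Zfp36, which encodes tristetraprolin (TTP), was set aside. The members are the 163 of these with a mean of at least 50 estimated counts over the 18 libraries. Of the other 227 symbols, 18 had no count in any library. All 163 members passed the filter on low counts, as did 279 of the 390 symbols. Just inside the threshold lay Zfp560 (51.3 mean estimated counts), Zfp719 (50.3) and Zfp1 (50.2), and just outside it Zfp90 (49.1), Zfp825 (49.0) and Zfp994 (47.9). No member was at 0 in any library, and no library held more than 2 members below 20 counts.

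Basophils were grown from the bone marrow of wild-type (WT) mice and of mice labelled TTP-KO, over 7 days in interleukin-3 at 0.3 ng/mL. IgE against the hapten TNP (1 µg/mL) was added on day 6, and cells carrying CD49b were then enriched on magnetic beads. In each genotype 3 libraries were made from cells given control ovalbumin (OVA) for 2 h, 3 from cells given TNP-coupled ovalbumin (TNP-OVA) for 2 h and 3 from cells given TNP-OVA for 4 h, both proteins at 10 ng/mL. The series asks how a lack of TTP alters gene expression in IgE-primed basophils that meet antigen. All 6 groups share the culture, the IgE and the sort, and the control at 2 h serves both times, so a change at 4 h and the time in culture cannot be told apart. The labels give neither the age of the mice nor the part of the gene that was altered, and nothing in them tells if the 3 libraries within a group stem from different mice or cultures, so that each p-value reflects library-to-library spread alone, which may be technical.

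Most mammalian zinc finger proteins of the C2H2 kind grip DNA with an array of fingers, each a short fold in which a pair of cysteines and a pair of histidines hold a zinc ion. Many carry a KRAB domain at their start, which recruits the co-repressor Trim28 and with it enzymes that lay down repressive chromatin, and a large share of these silence transposable elements or imprinted genes. Others have no KRAB domain and act as ordinary transcription factors, as partners of co-repressor complexes, or on RNA, ribosomes and ubiquitin. Antigen that links IgE on the receptor FceRI sets off a burst of transcription in basophils, which ends in cytokine release.

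Library totals ran from 5516580 to 12733172 estimated counts, and the members took from 0.364% to 0.443% of a library. Markers of the basophil were abundant throughout: the summed level of 10 such genes, Mcpt8 and Prss34 among them, ran from 20886 to 27020 CPM. T and NK cell markers stood between 0.776 and 3.76 CPM summed over 5 genes. Other lists were far higher. Summed dendritic cell genes ran from 2550 to 4267 CPM, and neutrophil and precursor genes from 843 to 2281. Megakaryocyte and platelet genes ran from 1182 to 1657 CPM, and monocyte and macrophage genes from 765 to 880. Single basophil genes differed between groups. In WT Ms4a2 averaged 408 CPM in control and 204 at 2 h, and Mcpt8 averaged 5359 and 6945. Zfp36 RNA stood at 218 to 227 CPM in the TTP-KO controls and 224 to 246 in the WT controls, and at 2 h at 552 to 571 and 438 to 459, and since the labels do not give the altered part, these values do not check the genotype. CPM here are counts scaled to a common library size by TMM, which sets the libraries level at the middle of all genes, and a gene is called where edgeR's quasi-likelihood test gave a Benjamini-Hochberg adjusted p under 0.05 over all 14076 genes tested.

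After 2 h of TNP-OVA in WT cells, 28 members were higher and 42 lower than with control OVA, 42.9% of the members against 35.1% of all genes tested. Of all genes, 17.8% were called higher and 17.3% lower. The members' median log2 fold change was -0.05, the same to 2 decimals as the -0.05 of all genes. At 4 h 30 members were higher and 28 lower than control, 35.6% of the members against 38.0% of all genes (19.6% higher and 18.4% lower), again with a median close to that of all genes (-0.03 and -0.01). The 3 antigen libraries lay entirely above or below the 3 controls for 78 members at 2 h, where this held for 43.4% of all genes. Changes were mostly small: 10 members moved 2-fold or more and were called at 2 h and 4 did so at 4 h, that is 6.13% and 2.45% of the members beside 7.47% and 6.42% of all genes. The plot of members ordered by their response shows a broad flat middle with short steep ends.

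**Figure D1:**
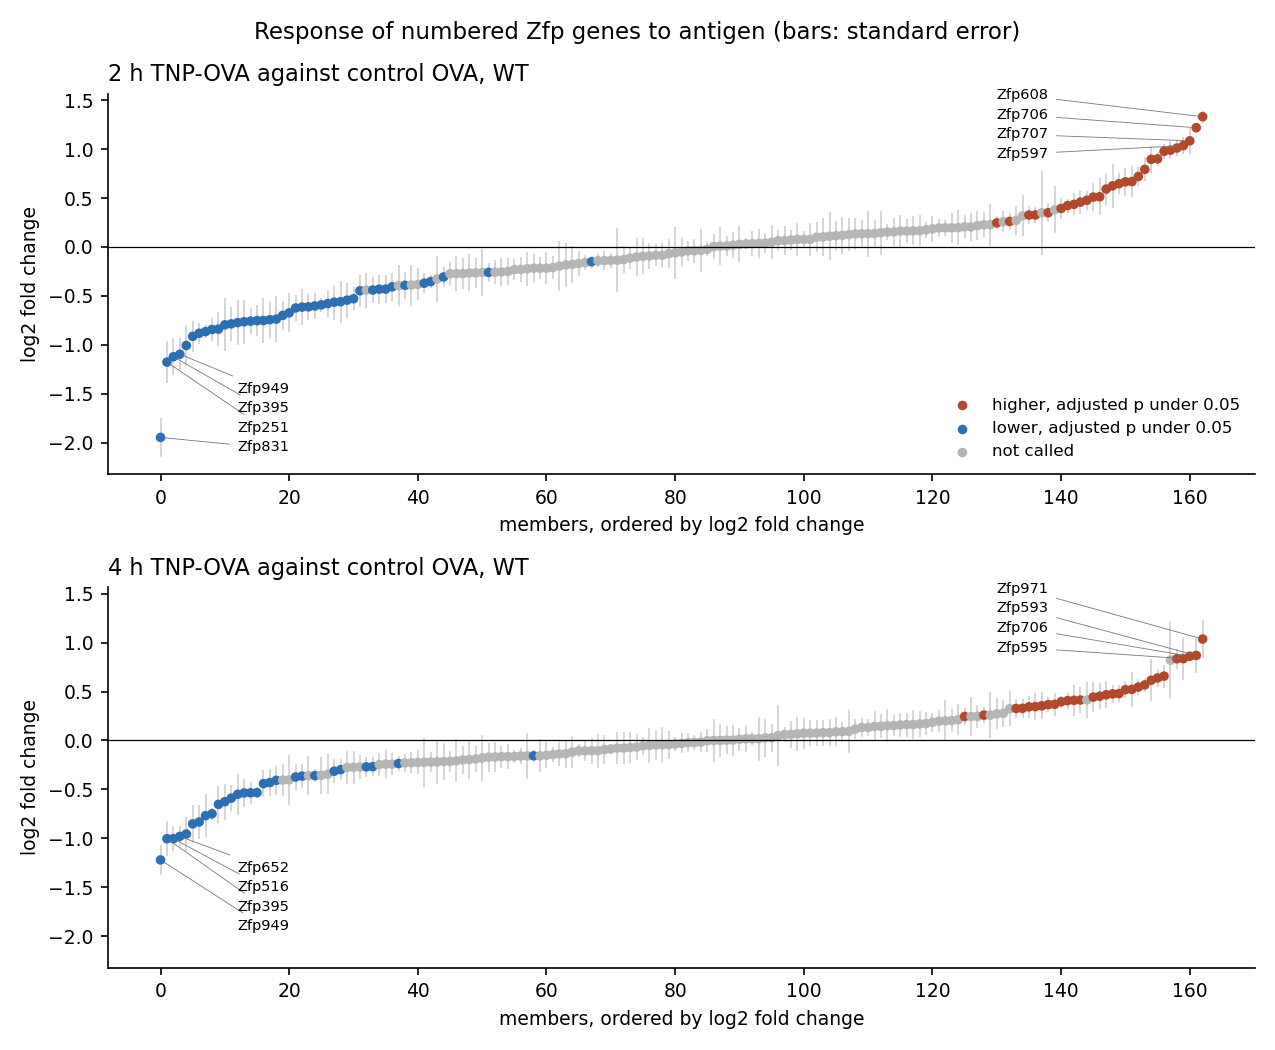
Log2 fold change of each of the 163 members in WT cells (vertical axis), ordered from lowest to highest (horizontal axis), after 2 h (top) and 4 h (bottom) of TNP-OVA against control OVA; bars are standard errors and colours mark the edgeR calls. At 2 h the values run from -1.95 (Zfp831) to 1.33 (Zfp608), and at 4 h from -1.22 (Zfp949) to 1.04 (Zfp971).

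The split of calls differed with abundance. Among the 47 members with a mean of at least 200 estimated counts, 17 were higher and 9 lower in WT cells at 2 h. Among the 116 members between 50 and 200 counts, 11 were higher and 33 lower. All tested genes in the same ranges showed the same tilt: 31.0% were higher and 23.4% lower in the upper range, and 10.5% were higher and 21.4% lower in the lower range.

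How the libraries are scaled also bears on the split. The members' raw share of all counts was 0.433% ± 0.00362 (SD, n = 3) in WT control, 0.374% ± 0.00291 at 2 h and 0.405% ± 0.00811 at 4 h, so that it was lowest at 2 h. Their summed TMM-scaled level went the other way, at 3945 ± 60.1 CPM in control, 4263 ± 60.5 at 2 h and 4021 ± 34.4 at 4 h (SD, n = 3). When the libraries were scaled by their totals alone, the median of all genes moved by -0.33 on the log2 scale at 2 h and by -0.12 at 4 h in WT. The split of members then became 13 higher and 86 lower at 2 h, and 15 higher and 44 lower at 4 h. Of all 14076 genes tested, 1281 were then called higher and 6415 lower at 2 h, and 1879 and 3718 at 4 h. Of the 28 members called higher at 2 h with TMM, 13 kept the call under library totals, while all 42 called lower kept it, and none was called in the opposite direction. All directions below are relative to the TMM scale, that is to the middle of all genes.

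The member with the largest rise belongs to the group that partners with chromatin complexes and transcription cofactors. Of 20 genes listed for such roles, 15 are members, of which 6 were higher and 3 lower in WT cells at 2 h, with a median log2 fold change of 0.18, and 5 were higher and 4 lower at 4 h. The 9 called at each time are 60% of the 15, beside 35.1% of all genes at 2 h and 38.0% at 4 h. Most of the 15 had a mean of at least 200 estimated counts. In that range 31.0% of all genes were higher and 23.4% lower at 2 h. The 5 listed genes that fell below the member threshold are Zfp532, Zfp827, Zfp521, Zfp462 and Zfp341. Zfp608, a large protein of 1511 residues described as a regulator of the Rag genes in thymocytes, was the member with the largest rise. In WT its level was 69.4, 64.8 and 68.2 CPM in the control libraries, 169, 167 and 174 at 2 h and 81.7, 95.2 and 89.6 at 4 h. All 3 libraries at 2 h lay far above both other groups, and the 3 at 4 h lay above the controls. The log2 fold change was 1.33 ± 0.06 (SE, adjusted p = 6.72e-17) at 2 h and 0.40 ± 0.06 (SE, adjusted p = 4.66e-06) at 4 h.

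Zfp609, its paralogue, is a partner of the cohesin loader Nipbl and of the Integrator complex. It stood at 32.1, 42.5 and 35.3 CPM in WT control, 68.1, 75.3 and 72.9 at 2 h and 54.6, 51.8 and 49.8 at 4 h, with no overlap between the 3 groups. Its log2 fold change at 2 h was 0.99 ± 0.09 (SE, adjusted p = 3.47e-10). The GENCODE proteins of both genes held a single match to the C2H2 finger pattern. Zfp281, a GC-box factor of pluripotent cells that works with the NuRD co-repressor, measured 44.4, 49.7 and 49.6 CPM in WT control, 96.7, 82.8 and 109.7 at 2 h and 56.4, 58.3 and 57 at 4 h. Its libraries at 2 h were the highest, and those at 4 h lay closely above the controls. Its log2 fold change was 1.01 ± 0.08 (SE, adjusted p = 5.1e-11) at 2 h and 0.26 ± 0.08 (SE, adjusted p = 0.015) at 4 h, the latter not kept under library totals (0.13, adjusted p = 0.216), without WT control library 1 (adjusted p = 0.0868) or without WT 4 h library 2 (0.0765). Zfp148, its closest relative, was not called at 2 h (0.15, adjusted p = 0.156), with 52.8 to 61.4 CPM in control and 59.9 to 67.5 at 2 h.

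Zfp143, an activator that binds a fixed promoter element, was raised at both times. It stood at 13.2, 11.3 and 11.8 CPM in WT control, 21.1, 20.2 and 21.8 at 2 h and 19, 17.4 and 21.3 at 4 h, a log2 fold change of 0.79 ± 0.12 and 0.66 ± 0.12 (SE), and the antigen groups did not overlap the control. Zfp384 (0.51, adjusted p = 0.00462) and the BTB protein Zfp131 (0.25, adjusted p = 0.00448) completed the rise at 2 h, but under library totals neither was called (0.18 and -0.08), and the sign of Zfp131 flipped. Lower members of the list were Zfp217, part of a CtBP and CoREST co-repressor complex (-0.59 ± 0.07, SE), Zfp219 (-0.41 ± 0.14) and Zfp516, an activator of the brown fat gene Ucp1 (-0.60 ± 0.13). Zfp516 was among the 2 members that fell at 2 h and again from 2 h to 4 h (-0.40, adjusted p = 0.0258), the latter step being -0.20 under library totals (adjusted p = 0.248) and not called without WT 2 h library 2 (adjusted p = 0.166) or 3 (0.091) or WT 4 h library 1 (0.128). The call for Zfp219 ended in DESeq2 (adjusted p = 0.0823), in a fit on the libraries compared alone (0.0528), and without WT control library 3 or any WT 2 h library (from 0.0521 to 0.176). In WT the level of Zfp516 was 29, 31.7 and 31.4 CPM in control, 15.7, 22.9 and 21.6 at 2 h and 13.6, 16 and 16.3 at 4 h, the antigen groups lying below control and overlapping each other.

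Outside that list, Zfp706 combined a large rise with a high level. It encodes a protein of 76 residues with a single finger, and it had more counts than any other member, 283 CPM on average over all libraries. In WT it measured 158, 158 and 167 CPM in control, 385, 374 and 365 at 2 h and 302, 279 and 296 at 4 h. The groups were fully apart, and the log2 fold change was 1.22 ± 0.05 (SE, adjusted p = 2.2e-18) at 2 h and 0.86 ± 0.05 (SE, adjusted p = 1.19e-14) at 4 h. Per kilobase of its longest GENCODE transcript Zfp706 had 64.2 CPM, Zfp207 35.3, Zfp91 21.7, Zfp608 16.9 and Zfp871 9.37, these being the 5 members with the most CPM.

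Zfp707, a KRAB protein with 7 fingers, had the largest fall from 2 h to 4 h of the members called in WT. It stood at 12.8, 16.1 and 14.9 CPM in WT control, 29.2, 28.3 and 34.9 at 2 h and 14.8, 17.7 and 13.3 at 4 h. The libraries at 2 h lay above all others, and those at 4 h overlapped the controls. Its log2 fold change was 1.08 ± 0.13 (SE, adjusted p = 1.29e-07) at 2 h, 0.08 ± 0.14 (SE, adjusted p = 0.706) at 4 h and -1.01 ± 0.13 (SE, adjusted p = 3.71e-07) between the times. Zfp597 (1.04 ± 0.09), Zfp1001 (0.98 ± 0.08), Zfp120 (0.90 ± 0.07) and Zfp382 (0.90 ± 0.14; all SE) were the remaining large rises at 2 h. The last 3 carry a KRAB pattern, but the GENCODE protein of Zfp1001 is only 101 residues long with no finger, and 31.03% of its 15-residue stretches also occur in other proteins, so its counts may share reads with near copies.

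**Figure D2:**
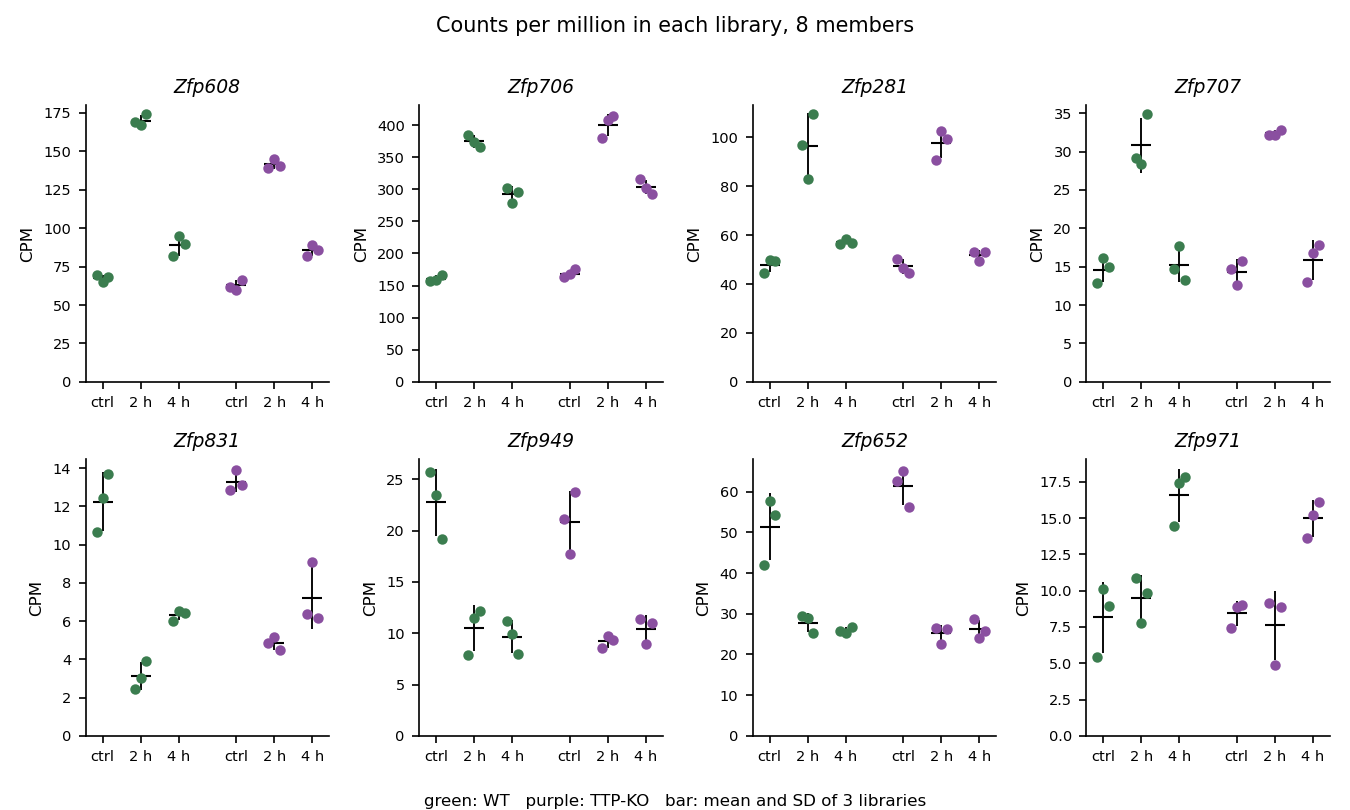
Level of 8 members in every library, in CPM on axes that start at 0, for WT (green) and TTP-KO (purple) after control OVA, 2 h and 4 h of TNP-OVA; horizontal and vertical bars are the mean and SD of 3 libraries. Zfp608, Zfp706, Zfp281 and Zfp707 peak at 2 h, Zfp831 is lowest at 2 h, Zfp949 and Zfp652 stay low at both times, and Zfp971 is high at 4 h.

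The strongest fall was that of Zfp831, a protein of 1628 residues with 2 finger matches. It went from 10.6, 12.5 and 13.7 CPM in WT control to 2.47, 3.04 and 3.91 at 2 h and stood at 6.01, 6.53 and 6.41 at 4 h, with no overlap between groups. At 4 h it was still below control (-0.96 ± 0.17 SE, adjusted p = 5.2e-05), and it had risen from 2 h (0.99 ± 0.21 SE, adjusted p = 0.00044). Across the 6 group means its pattern was most like those of Zfp362 (Pearson r = 0.995), Zfp268 (0.982) and Zfp568 (0.971), and that of Zfp608 was most like Zfp715 (0.976), Zfp281 (0.973) and Zfp597 (0.955). These are descriptions over 6 points that share their libraries.

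Zfp949, a KRAB protein with 11 fingers, fell and stayed down. Its WT level was 25.7, 23.4 and 19.2 CPM in control, 7.92, 11.5 and 12.1 at 2 h and 11.2, 9.88 and 7.93 at 4 h. Both antigen groups lay below all controls and overlapped each other, with a log2 fold change of -1.10 ± 0.16 (SE, adjusted p = 3.45e-06) at 2 h and -1.22 ± 0.16 (SE, adjusted p = 2.78e-07) at 4 h. Zfp652, a repressor that works with proteins of the ETO family, had 42.1, 57.8 and 54.3 CPM in control, 29.4, 28.9 and 25.2 at 2 h and 25.8, 25.3 and 26.9 at 4 h, again with both antigen groups below control and overlapping each other. Its log2 fold change was -0.88 ± 0.11 and -0.98 ± 0.10 (SE) at the respective times.

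Zfp395, first described as a factor that binds the huntingtin gene promoter, measured 10.2, 8.8 and 13.8 CPM in WT control, 4.95, 5.25 and 4.99 at 2 h and 5.21, 6.14 and 5.09 at 4 h. Its change was -1.12 ± 0.19 (SE, adjusted p = 2.24e-05) at 2 h and was called at 4 h too (adjusted p = 4.06e-05), and the antigen groups lay below every control. Zfp740, the sixth member by CPM, moved from 126, 143 and 135 CPM to 78.7, 70.9 and 72 and 82.3, 81 and 76.4, again without overlap of control and antigen (-0.87 ± 0.06 and -0.75 ± 0.06). Zfp746, also known as PARIS, a repressor of Pgc-1alpha that parkin marks for decay, changed by -0.84 ± 0.12 and -0.54 ± 0.11 (SE). The other large falls at 2 h were Zfp251 (-1.18), Zfp579 (-1.01), Zfp568 (-0.91) and Zfp362 (-0.84).

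In WT, 21 members were higher and 23 lower at 4 h than at 2 h, 27.0% of the members beside 31.1% of all genes (15.2% higher and 15.9% lower). Under library totals this split was 58 higher and 12 lower, the median of all genes then moving by 0.20. All 14076 genes tested then split into 4614 called higher, 1191 called lower and the rest not called. These comparisons share the 2 h libraries with those against control, so the counts that follow only describe the members. The same classes were not counted over all genes, so they cannot tell if the members differ from other genes in this. Of the 28 members higher at 2 h, 15 fell again by 4 h, and of the 42 lower at 2 h, 12 rose again. None rose further, and 2 fell further (Zfp516 and Zfp704). The ones that rose again include Zfp553, at 11.2, 12 and 10.7 CPM in control, 6.1, 6.64 and 6.74 at 2 h and 9.63, 11.4 and 11 at 4 h (0.71 ± 0.17 SE, adjusted p = 0.00163, from 2 h to 4 h). Its libraries at 4 h overlapped the controls.

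A smaller set moved late on the TMM scale: 9 members were not called at 2 h and were higher at 4 h than at 2 h, and 6 were lower. These classes were not counted over all genes either. Under library totals some of the 9 were called lower than control at 2 h. Among these were Zfp106 (-0.46), Zfp292 (-0.49), Zfp422 (-0.36) and Zfp426 (-0.39), while Zfp146 was not called (-0.32, adjusted p = 0.182). The largest late rise that did not start with a fall was that of Zfp971, a KRAB protein with 12 fingers. Its WT level was 5.43, 10.1 and 8.93 CPM in control, 10.9, 7.74 and 9.84 at 2 h and 14.5, 17.4 and 17.8 at 4 h, the 4 h libraries lying above all others (1.04 ± 0.19 SE, adjusted p = 9.45e-05, against control). Because 53.95% of its 15-residue stretches occur in other proteins, mainly Zfp970, its value is uncertain. Zfp1009, with 1.06 ± 0.26 (SE, adjusted p = 0.00246) from 2 h to 4 h, is uncertain for the same reason, all of its stretches being found elsewhere.

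Zfp52, another KRAB gene, and Zfp593, a factor of ribosome biogenesis, were higher at both times, by 0.65 ± 0.11 and 0.51 ± 0.19 at 2 h and 0.83 ± 0.10 and 0.87 ± 0.18 at 4 h (SE); under library totals the call for Zfp593 at 2 h was lost (0.19, adjusted p = 0.405). That call also ended in DESeq2 (adjusted p = 0.0616), with no expression filter (0.0678), and without WT control library 1 or 2 or any WT 2 h library (from 0.052 to 0.154). Zfp719 (0.62, adjusted p = 0.0236) had 1 library above the rest, with 5.92, 5.76 and 9.15 CPM at 4 h beside 4.28, 4.32 and 4.85 in control. It was no longer called without that library (adjusted p = 0.21), without WT control library 1 (0.0723) or 2 (0.0597), or under library totals (0.0683). Zfp524 at 4 h (-0.77, adjusted p = 0.00567) lost its call without WT 4 h library 3 (adjusted p = 0.0515) or WT control library 2 (0.057).

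The 11 genes listed for work on RNA, ribosomes, ubiquitin or SUMO are all members, of which 1 was higher and 3 lower in WT at 2 h, and 1 was higher and 2 lower at 4 h. That is 36.4% of the list at 2 h and 27.3% at 4 h, beside 35.1% and 38.0% of all genes. Zfp451, a SUMO ligase, was the one higher at 2 h, from 28.2, 25.2 and 26.3 CPM in control to 29.9, 34.4 and 40.3 (0.39 ± 0.10 SE, adjusted p = 0.0034), a value of 0.07 under library totals (adjusted p = 0.606), and not called without WT 2 h library 3 (adjusted p = 0.0557). Zfp91, a ubiquitin ligase of the non-canonical NF-kB pathway, was lower at 2 h, at 100.0, 104 and 107 CPM against 146, 126 and 126 (-0.35 ± 0.06 SE, adjusted p = 5.61e-05). Zfp598, the ligase that marks collided ribosomes, was lower by a smaller step in WT (-0.31, adjusted p = 0.0254) and was not called in TTP-KO (adjusted p = 0.998). Zfp277 was the remaining lower gene at 2 h (-0.54, adjusted p = 0.0184). The WT call for Zfp598 ended in DESeq2 (adjusted p = 0.0899), in a fit on the libraries compared alone (0.087), and without WT control library 2 or 3 or WT 2 h library 1 or 2 (from 0.0693 to 0.124). That for Zfp277 ended without WT control library 2 (0.176) or WT 2 h library 1 (0.0505) or 3 (0.0942).

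Zfp106, an RNA-binding protein, rose late. It stood at 56.4, 53.1 and 59 CPM in WT control, 52, 50.3 and 51.4 at 2 h and 68.5, 74.3 and 75.1 at 4 h, with the 4 h libraries above all others (0.37 ± 0.07 SE, adjusted p = 0.000183). Under library totals it was called lower at 2 h in WT (-0.46, adjusted p = 1.19e-05) and higher at 4 h (0.24, adjusted p = 0.00976). Zfp207, a spindle assembly factor and the fourth member by CPM, was not called against control in either genotype, its levels running from 85.7 to 120.5 CPM over the 18 libraries. Under library totals Zfp207 was called lower at 2 h in WT (-0.47, adjusted p = 2.29e-06) and in TTP-KO (-0.44, adjusted p = 6.39e-06). Zfp622, a ribosome biogenesis factor, was not called against control in WT either (0.08, adjusted p = 0.514, at 2 h).

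Among the 8 genes listed as repressors of imprinted genes and retroelements, 5 are members and Zfp57, Zfp708 and Zfp819 are not. Of the 5 members, 1 was higher and 1 lower in WT at each time. That is 40% of the 5 members, beside 35.1% of all genes at 2 h and 38.0% at 4 h. Zfp445, which guards imprints together with Zfp57, stood at 44.6, 43.3 and 44.4 CPM in WT control, 45.7, 52.3 and 60.4 at 2 h and 56.2, 60.6 and 58.9 at 4 h. Its log2 fold change was 0.41 ± 0.08 (SE, adjusted p = 0.000239) at 4 h and 0.26 (adjusted p = 0.0182) at 2 h, the latter turning to -0.07 under library totals and not called without WT control library 2 (adjusted p = 0.0507) or WT 2 h library 3 (0.203). Zfp568, which represses a placental transcript of Igf2, was lower at both times, with 15, 16.6 and 18.6 CPM in control, 8.25, 7.74 and 10.6 at 2 h and 13.8, 11.4 and 12.9 at 4 h. Its log2 fold change was -0.91 ± 0.16 (SE, adjusted p = 3.64e-05) at 2 h and -0.41 ± 0.15 (SE, adjusted p = 0.028) later. The later call ended in DESeq2 (adjusted p = 0.0608) and without WT control library 2 or 3 or WT 4 h library 2 or 3 (from 0.0542 to 0.154). Zfp809, which silences retroviruses that use a proline primer site, was not called (-0.22, adjusted p = 0.276, at 2 h), nor were Zfp932 and Zfp738, both of them with near copies.

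The GENCODE protein of each member was searched for a KRAB A-box pattern and for C2H2 fingers. The pattern was found in 61 members and not in 102, against 1.25% of all 21901 GENCODE proteins searched. Finger matches ran from 0 to 36, with a median of 11 in KRAB members and 7 in the others, and 5 members had none (Zfp1001, Zfp1009, Zfp330, Zfp703 and Zfp839). A looser form of the pattern, chosen after the data had been seen, added 5 members (Zfp110, Zfp369, Zfp212, Zfp746 and Zfp777). These 5, and Zfp655, which matched the first pattern in another isoform only, are counted below with the other members. That class may therefore hold KRAB proteins that the pattern missed.

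The shares of KRAB and other members called are given as a description, and their difference was not tested. The groups are not alike in abundance: a smaller part of the KRAB members than of the others had a mean of at least 200 estimated counts. Among all tested genes in WT at 2 h, 10.5% were higher and 21.4% lower between 50 and 200 counts. At 200 counts or more, 31.0% were higher and 23.4% lower. The shares below are not matched for abundance. In WT at 2 h, 8 KRAB members were higher and 11 lower, 31.1% of them, beside 20 and 31 of the other members, 50%. The shares at 4 h in WT were 24.6% and 42.2%. In TTP-KO they were 24.6% and 47.1% at 2 h and 21.3% and 35.3% at 4 h. The median log2 fold changes of KRAB and other members were 0.01 and -0.09 in WT at 2 h, 0.02 and -0.07 in WT at 4 h, -0.14 and -0.09 in TTP-KO at 2 h, and 0.08 and 0.03 in TTP-KO at 4 h. KRAB genes also hold most of the look-alikes: 16 of the 18 members in which more than 30% of the 15-residue stretches occur in another protein.

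**Figure D3:**
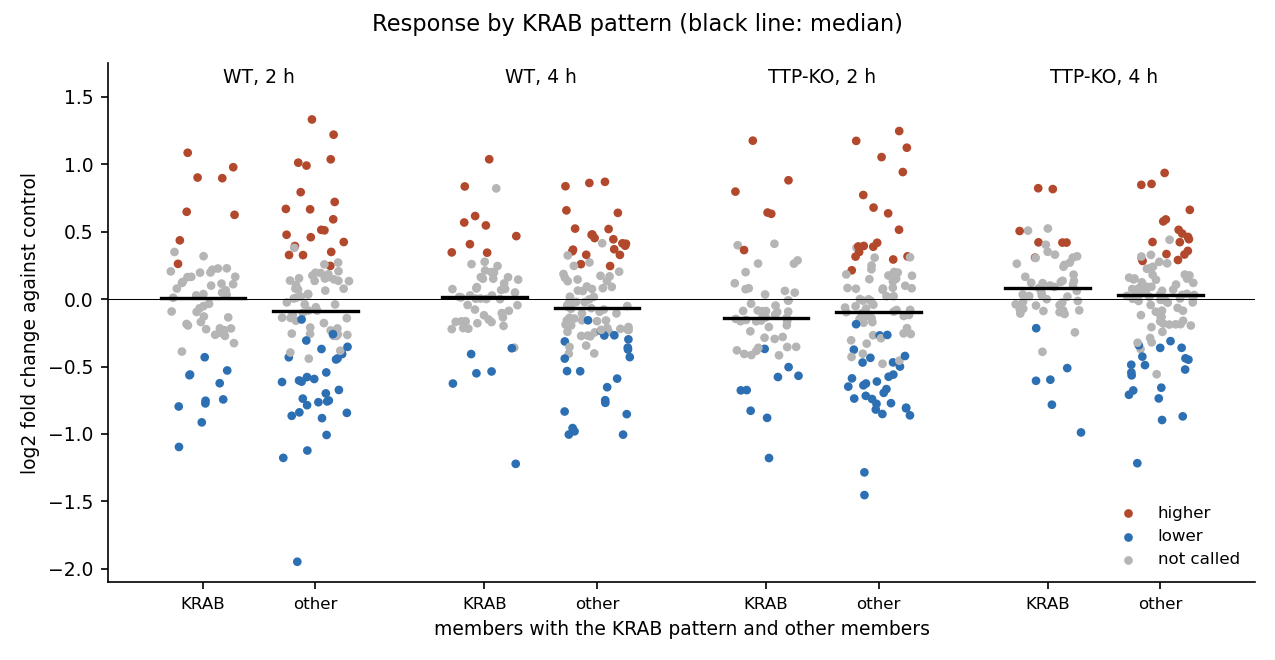
Log2 fold change against control (vertical axis) of 61 members with the KRAB pattern and 102 other members, in WT and TTP-KO at 2 h and 4 h of TNP-OVA; each point is a member, coloured by its edgeR call, and black lines are medians. In WT at 2 h, 19 KRAB members and 51 other members are coloured.

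Of 43 genes for the machinery that KRAB proteins recruit, 42 were tested, and in WT at 2 h 7 were higher, 9 lower and 26 not called, with a median of -0.05. The 16 called are 38.1% of the list, a share close to that of all genes (35.1%). Trim28 itself fell (-0.35 ± 0.09 SE, adjusted p = 0.00244), as did the histone methyltransferase Ehmt2 (-0.60 ± 0.07 SE, adjusted p = 9.62e-08) and the heterochromatin protein gene Cbx3 (-0.58 ± 0.12 SE, adjusted p = 0.000287). The NuRD genes Chd3 (1.26 ± 0.05 SE, adjusted p = 6.1e-19) and Rbbp7 (0.90 ± 0.06 SE, adjusted p = 1.11e-12) and the demethylase gene Kdm1a (0.99 ± 0.06 SE, adjusted p = 3.93e-14) rose. At 4 h Trim28 (0.01, adjusted p = 0.913), Kdm1a (-0.10, adjusted p = 0.187) and Rbbp7 (0.07, adjusted p = 0.375) were not called, and Chd3 was slightly lower (-0.17, adjusted p = 0.00417). In related families in WT at 2 h, 10 of 38 tested Zbtb genes were higher and 5 lower, and 2 of 17 genes with Zscan, Zkscan, Znf and similar names were higher and 1 lower. The shares called are 39.5% and 17.6%, beside 35.1% of all genes.

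Zinc finger genes lie in tandem clusters, and 162 members could be placed in the RefSeq gene order. They fell on 19 chromosomes, with 35 on chromosome 7, 15 on chromosome 17 and 13 on chromosome 8. In all 48 members lay in 21 runs with no other protein-coding gene between them. In WT at 2 h 4 of the 21 runs had more than 1 called member, and in 2 of these the calls went both ways. In the run of Zfp260, Zfp382 and Zfp146 on chromosome 7, Zfp260 was lower at 2 h (-0.76, adjusted p = 4.83e-05), Zfp382 higher (0.90, adjusted p = 3.97e-06) and Zfp146 not called (0.01, adjusted p = 0.98). In the run of Zfp51, Zfp53 and Zfp52 on chromosome 17, Zfp53 was lower (-0.62, adjusted p = 0.000439), Zfp52 higher (0.65, adjusted p = 2.19e-05) and Zfp51 not called (0.13, adjusted p = 0.607).

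Promoters were searched for the letters TGACGTCA, the full cyclic AMP response element, on both strands, and for 3 other motifs. RefSeq windows from 250 bases before to 50 after the start were at hand for 131 members, 163 windows in all. TGACGTCA occurred in 8 of them, 4.91%, beside 1.79% of all 32851 windows. The promoter element of Zfp143 occurred in 4 windows (Zfp1, Zfp180, Zfp692 and Zfp933), 2.45% beside 0.295%. The AP-1 letters TGAGTCA occurred in 3.68% beside 5.20%, and the Egr letters GCGTGGGCG in 0.61% beside 0.612%. A match is only a description of the letters.

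A pair of neighbouring genes on chromosome 9, and another on chromosome 13, hold TGACGTCA in both promoters. The promoters of the chromosome 13 pair, Zfp595 and Zfp953, are also much alike in the letters around it. Their matches may therefore not be independent. The 4 promoters are shown so that the shared element, in capitals, can be seen beside the values that follow; each is 250 bases ending just before the RefSeq start, from GRCm38.p6, minus strand, written 5′ to 3′. Zfp266 lies at chr9:20521420-20521669, Zfp426 at chr9:20492747-20492996, Zfp595 at chr13:67332561-67332810 and Zfp953 at chr13:67360573-67360822.
Zfp266: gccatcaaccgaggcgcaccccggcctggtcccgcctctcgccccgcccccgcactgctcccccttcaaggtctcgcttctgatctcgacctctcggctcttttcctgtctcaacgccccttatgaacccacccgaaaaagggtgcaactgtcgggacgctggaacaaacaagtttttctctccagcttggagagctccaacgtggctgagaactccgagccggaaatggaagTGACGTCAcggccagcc
Zfp426: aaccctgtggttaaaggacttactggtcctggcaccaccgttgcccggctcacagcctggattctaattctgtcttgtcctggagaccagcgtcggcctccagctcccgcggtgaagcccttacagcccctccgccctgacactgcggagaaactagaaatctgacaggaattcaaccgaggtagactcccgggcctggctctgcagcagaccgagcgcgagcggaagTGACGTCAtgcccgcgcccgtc
Zfp595: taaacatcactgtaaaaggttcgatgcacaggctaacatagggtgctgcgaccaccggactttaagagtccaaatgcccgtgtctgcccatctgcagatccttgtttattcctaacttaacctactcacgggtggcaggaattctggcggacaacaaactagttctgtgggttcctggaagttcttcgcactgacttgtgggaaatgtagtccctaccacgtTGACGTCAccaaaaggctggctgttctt
Zfp953: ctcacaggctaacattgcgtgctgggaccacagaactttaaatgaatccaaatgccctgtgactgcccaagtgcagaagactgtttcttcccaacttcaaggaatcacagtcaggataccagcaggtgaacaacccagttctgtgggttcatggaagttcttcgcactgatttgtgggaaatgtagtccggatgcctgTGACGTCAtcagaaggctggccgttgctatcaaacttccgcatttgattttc

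Zfp426 rose late, with 11.6, 9.96 and 9.41 CPM in WT control, 9.07, 10.9 and 9.44 at 2 h and 13.3, 15.8 and 13.6 at 4 h (0.54 ± 0.14 SE, adjusted p = 0.00483, from 2 h to 4 h). All 3 libraries at 4 h lay above the others, although the call ended without WT 4 h library 2 (adjusted p = 0.0512). Zfp266 next to it had 16.8, 19.1 and 15.4, 16.5, 13.7 and 12.8 and 18.5, 18.2 and 17 CPM in the same groups and was not called from 2 h to 4 h (0.33, adjusted p = 0.0681). In TTP-KO the step was 0.80 (adjusted p = 9.49e-05) for Zfp426 and 0.23 (adjusted p = 0.22) for Zfp266. Under library totals the step of Zfp266 was called in WT (0.53, adjusted p = 0.00262) and in TTP-KO (0.44, adjusted p = 0.0136). That of Zfp426 was called in both as well (0.74 and 1.00). Both genes were then called lower than control at 2 h in WT (Zfp266 -0.57, adjusted p = 0.00116, and Zfp426 -0.39, adjusted p = 0.0306).

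Zfp595 stood at 3.93, 4.65 and 4.85 CPM in WT control, 4.95, 3.73 and 6.07 at 2 h and 6.36, 8.25 and 9.46 at 4 h (0.70 ± 0.22 SE, adjusted p = 0.0147, from 2 h to 4 h). This call in WT ended without WT 2 h library 2, WT 4 h library 2 or WT 4 h library 3 (adjusted p = 0.109, 0.0548 and 0.0808). In TTP-KO Zfp595 had 5.11, 5.16 and 4.61 CPM in control, 5.27, 4.48 and 2.96 at 2 h and 9.84, 8.43 and 10.1 at 4 h, a step of 1.15 ± 0.22 (SE, adjusted p = 0.000185) with the 4 h libraries above all others. Zfp953 beside it had 10.2 to 15.1 CPM over the 9 WT libraries with no call, and in TTP-KO it rose from 2 h to 4 h by 0.43 ± 0.15 (SE, adjusted p = 0.0316). That call ended in DESeq2 (adjusted p = 0.0685), in a fit on the libraries compared alone (0.0663), and without TTP-KO 2 h library 1 or TTP-KO 4 h library 1 or 3 (from 0.0655 to 0.25). The other promoters with TGACGTCA were those of Zfp335, Zfp367, Zfp523 and Zfp868, which did not share a pattern in WT. Zfp367 was higher at 2 h (0.67, adjusted p = 0.000352) and lower from 2 h to 4 h (-0.60, adjusted p = 0.000902). Zfp523 was higher at 2 h (0.59, adjusted p = 0.00593) and not called from 2 h to 4 h (-0.18, adjusted p = 0.416), and under library totals its 2 h call was lost (0.27, adjusted p = 0.18). Zfp335 and Zfp868 were called in none of the WT comparisons.

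In the libraries labelled TTP-KO, 24 members were higher and 39 lower at 2 h, 38.7% of the members beside 34.5% of all genes (17.8% higher and 16.6% lower). At 4 h 24 were higher and 25 lower, 30.1% beside 35.0% of all genes (18.3% and 16.7%). From 2 h to 4 h 28 were higher and 18 lower, 28.2% beside 30.8% (14.6% and 16.2%). Under library totals these splits were 12 and 102, 15 and 36, and 72 and 7, the median of all genes moving by -0.34, -0.13 and 0.20. The same splits over all 14076 genes tested were 1218 and 6458, 1635 and 3559, and 4636 and 1237. At 2 h 21 members were called higher in both genotypes, 12.9% of the members beside 14.6% of all genes, and 31 lower, 19.0% beside 12.0%. At 4 h 19 were higher in both, 11.7% beside 13.9%, and 17 lower, 10.4% beside 12.7%. No member was called in opposite directions, which was also rare over all genes, at 0.0213% at 2 h and 0.0781% at 4 h. Across the 163 members the log2 fold changes of the genotypes had a Pearson r of 0.892 at 2 h and 0.809 at 4 h, as a description across genes, which are not independent.

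The 2 h and 4 h comparisons of a genotype share their controls, so members called in all of them are listed only as a description. Against control 12 members were higher in all 4 comparisons, 7.36% of the members beside 8.18% of all genes, and 15 were lower, 9.20% beside 6.83%. The 12 higher ones were Zfp52, Zfp62, Zfp120, Zfp330, Zfp513, Zfp593, Zfp597, Zfp608, Zfp609, Zfp703, Zfp706 and Zfp1001, of which 6 (Zfp52, Zfp120, Zfp608, Zfp609, Zfp706 and Zfp1001) kept all 4 calls under library totals. The 15 lower ones were Zfp217, Zfp219, Zfp358, Zfp395, Zfp398, Zfp516, Zfp568, Zfp652, Zfp688, Zfp704, Zfp740, Zfp746, Zfp777, Zfp831 and Zfp949, and all of them stayed lower in all 4. Zfp646 and Zfp655 were called in both directions: Zfp646 was lower in WT at 2 h (-0.26, adjusted p = 0.0388) and higher in TTP-KO at 4 h (0.29, adjusted p = 0.0162), and Zfp655 was higher in TTP-KO at 2 h (0.29, adjusted p = 0.00598) and lower in WT at 4 h (-0.24, adjusted p = 0.0223). Under library totals the higher calls of both were lost, and that of Zfp655 changed sign (-0.04). The WT call of Zfp646 ended in DESeq2 (adjusted p = 0.121), with RLE scaling (0.0633), in a fit on the libraries compared alone (0.106), and without WT control library 2 or any WT 2 h library (from 0.0721 to 0.228). Its TTP-KO call ended without library 2 of the control or of the 4 h group (0.0666 and 0.0935). That of Zfp655 in WT ended with no expression filter (0.0675) and without WT control library 2 or 3 or WT 4 h library 1 (from 0.0583 to 0.132).

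**Figure D4:**
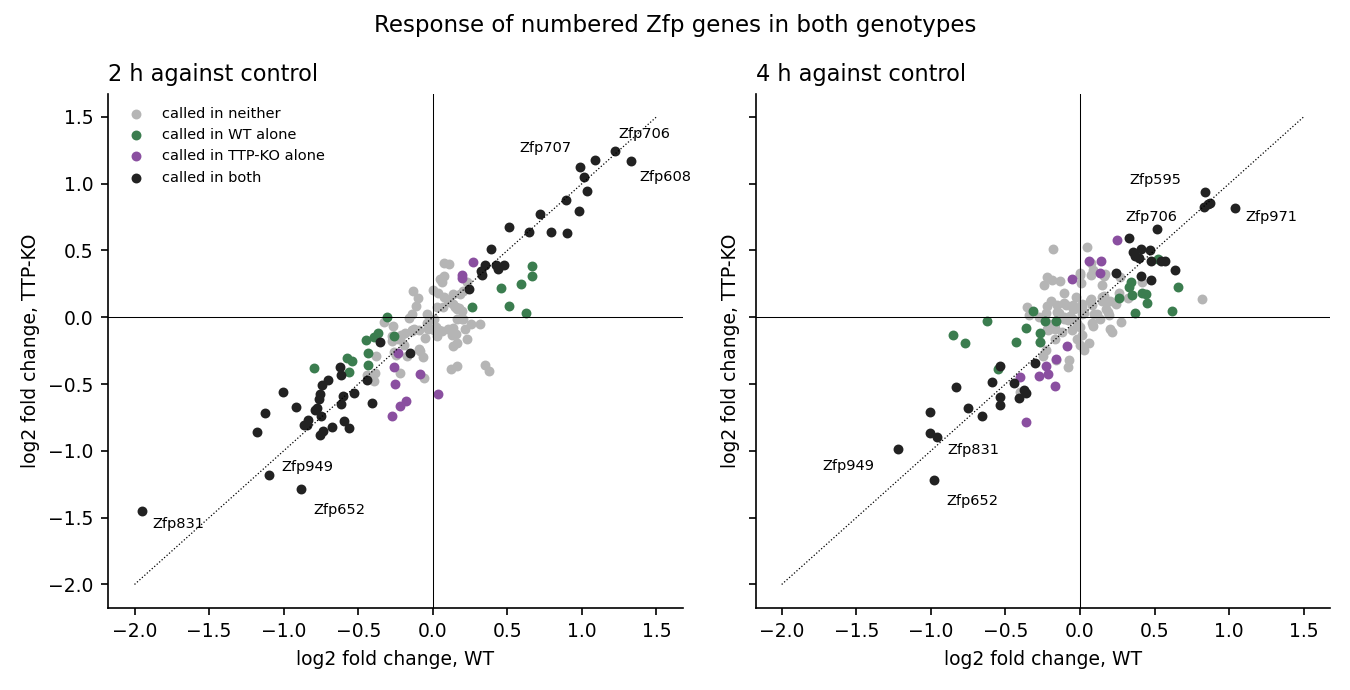
Log2 fold change of each member against control in WT (horizontal axis) and TTP-KO (vertical axis) at 2 h (left) and 4 h (right) of TNP-OVA, coloured by where edgeR called it; the dotted line marks equal change. The points lie along the line (Pearson r of 0.892 and 0.809 over 163 members), and no coloured point is called in opposite directions.

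In TTP-KO Zfp706 stood at 163, 167 and 176 CPM in control, 381, 407 and 413 at 2 h and 315, 302 and 293 at 4 h, and it rose at 2 h by 1.25 ± 0.05 beside 1.22 ± 0.05 in WT (SE). Zfp707 had 14.7, 12.6 and 15.7, 32.2, 32.2 and 32.8 and 12.9, 16.7 and 17.9 CPM in the same order, the 2 h libraries lying above the others. Zfp831 went from 12.8, 13.9 and 13.1 CPM to 4.84, 5.16 and 4.51 and 6.38, 9.08 and 6.16, a change of -1.45 ± 0.19 (SE) at 2 h where WT had -1.95 ± 0.20. Its TTP-KO libraries at 2 h all lay above the WT ones, but the difference at 2 h was not called (0.61, adjusted p = 0.164). Zfp652 changed by -1.28 ± 0.11 (SE) at 2 h in TTP-KO and -0.88 ± 0.11 in WT, and the difference between these responses was -0.40 ± 0.15 (SE, adjusted p = 0.602).

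Between the genotypes in control no member was called by edgeR or DESeq2, beside 1.65% of all genes, and 9 members had an unadjusted p under 0.05. The smallest p values were those of Zfp993 (0.49, adjusted p = 0.119), Zfp652 (0.26, adjusted p = 0.221) and Zfp638 (-0.23, adjusted p = 0.237). At 2 h 4 members were lower in TTP-KO and none higher, 2.45% of the members beside 2.79% of all genes (0.909% higher and 1.88% lower). At 4 h 2 were higher and 2 lower, again 2.45%, beside 5.22% of all genes (1.83% higher and 3.40% lower). Zfp1001 was called at both times.

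Zfp608 differed at its peak. In TTP-KO it had 62.1, 60.0 and 66.3 CPM in control, 139, 145 and 140.5 at 2 h and 82, 88.9 and 85.7 at 4 h, and its 3 libraries at 2 h lay below the 3 of WT. The log2 difference at 2 h was -0.26 ± 0.06 (SE, adjusted p = 0.00822), and it stayed called in every alternative run, with adjusted p from 0.00101 to 0.0472. The difference was not called in control (-0.10, adjusted p = 0.531) or at 4 h (-0.06, adjusted p = 0.702). The test of the difference in response itself was not passed (-0.16 ± 0.09 SE, adjusted p = 0.794).

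Zfp704, first described as a glucocorticoid-induced gene, differed at 4 h. In WT it stood at 98.4, 97.7 and 109 CPM in control, 94, 88.5 and 92.3 at 2 h and 70.6, 66.3 and 74.1 at 4 h, and in TTP-KO at 107, 112 and 108, 92.9, 91.6 and 86.7 and 82.3, 84.5 and 87.3. The TTP-KO libraries at 4 h all lay above those of WT (0.27 ± 0.06 SE, adjusted p = 0.00451), a call kept in every alternative run (adjusted p from 0.00185 to 0.0495). Zfp703, a corepressor of the NET family, was higher at 4 h as well, with 34.2, 34 and 35.8 CPM in TTP-KO beside 27.4, 28.3 and 27.5 in WT (0.32 ± 0.09 SE, adjusted p = 0.0286).

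The other differences were lower in TTP-KO. Zfp1001 had 67, 71.4 and 69.5 CPM at 2 h beside 87.8, 82.1 and 93.7 in WT (-0.34 ± 0.08 SE, adjusted p = 0.0111), and 51.6 to 54.5 beside 62.1 to 70.8 at 4 h (-0.29 ± 0.08 SE, adjusted p = 0.0227). Zfp120 had 72.4, 63.3 and 71.7 CPM at 2 h beside 80.8, 85.7 and 86.7 (-0.29 ± 0.07 SE, adjusted p = 0.018). Zfp942, a KRAB gene with a near copy, had 6.7, 11.5 and 9.65 CPM at 2 h beside 13.9, 14.5 and 14.2 (-0.61 ± 0.16 SE, adjusted p = 0.0309), its TTP-KO library 1 being the lowest. Zfp984, also with near copies, had 13.1, 14.7 and 15.2 CPM at 4 h beside 18.7, 18.2 and 20.2 (-0.41 ± 0.11 SE, adjusted p = 0.0287). The groups did not overlap for any of the 7 members at the times they were called, as held for 18.5% of all genes at 2 h and 25.1% at 4 h.

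**Figure D5:**
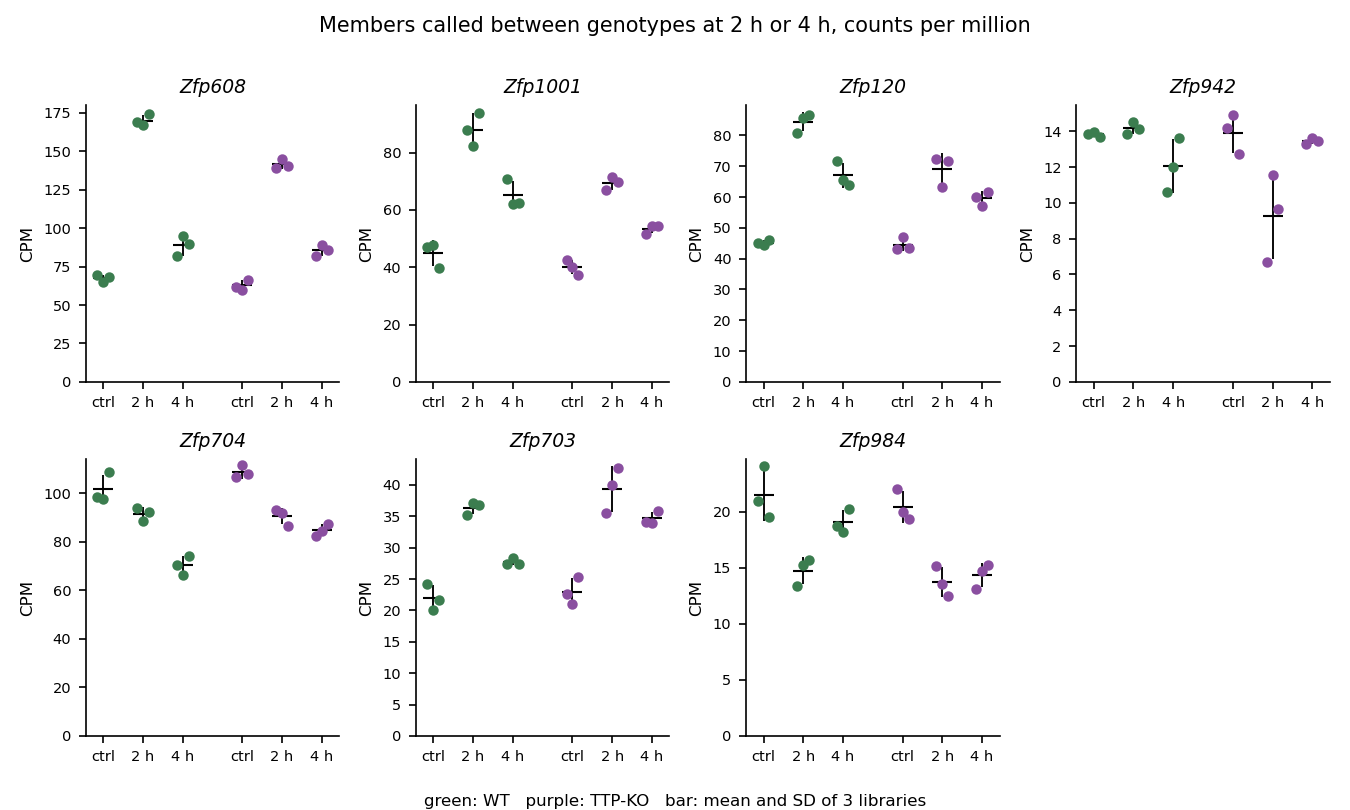
Level in CPM of the 7 members called between genotypes at 2 h or 4 h, in every library of WT (green) and TTP-KO (purple), with the mean and SD of 3 libraries; axes start at 0. The TTP-KO libraries at 2 h lie below those of WT for Zfp608, Zfp1001, Zfp120 and Zfp942, and at 4 h they lie above them for Zfp704 and Zfp703 and below them for Zfp984 and Zfp1001.

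Of these 8 calls, 6 were lost when some single libraries were left out. Zfp703 was not called at 4 h when any 1 of the 6 libraries compared was left out (adjusted p from 0.0624 to 0.119). Zfp984 lost its call without any WT library or without TTP-KO library 1 or 2 (from 0.0579 to 0.154). Zfp1001 lost it at 4 h under library totals (-0.26, adjusted p = 0.05004) and without WT library 1 or any TTP-KO library (from 0.0595 to 0.168), and at 2 h without WT library 3 (0.0757) or TTP-KO library 1 (0.0641). Zfp120 lost it without WT library 2 or 3 or TTP-KO library 2 (from 0.069 to 0.104). Zfp942 lost it without WT library 2 or 3 or TTP-KO library 1 or 3 (from 0.0641 to 0.201), and in a fit on these 6 libraries alone (0.0936).

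Some markers of other cells differed between the genotypes in the same libraries, in control as well as after antigen. In control the neutrophil and precursor list summed to 1099 to 1267 CPM in WT and 1649 to 1981 in TTP-KO. In the same order the dendritic cell list gave 3976 to 4126 and 2550 to 2645, and the B cell list 59.2 to 64.1 and 23.5 to 31.9. The monocyte and macrophage list overlapped there (772 to 805 and 782 to 795). At 4 h an erythroid list gave 24.8 to 27.0 and 14.1 to 17.7. The summed level of 9 neutrophil and precursor genes was 1044 to 1339 CPM in WT and 1899 to 2281 in TTP-KO at 2 h, and 843 to 939 and 1663 to 1899 at 4 h. Summed over 6 dendritic cell genes it was 3790 to 4098 CPM in WT and 2703 to 2861 in TTP-KO at 2 h, and 4121 to 4267 and 2603 to 2751 at 4 h. The defining dendritic gene Flt3 stayed at or below 0.828 CPM in every library, and the neutrophil gene Ly6g at or below 5.37. Ly6g went against its list, with means of 4.31 CPM in WT and 2.26 in TTP-KO at 2 h, and 2.12 and 1.38 at 4 h. Itgax, of the dendritic list, stood close in both, at 52.4 and 50.2 CPM at 2 h and 91.9 and 86.2 at 4 h. A list of 6 monocyte and macrophage genes summed to 765 to 806 CPM in WT and 784 to 859 in TTP-KO at 2 h. At 4 h it summed to 770 to 790 and 859 to 880. Of the other lists, 6 B cell genes summed to 56.2 to 68.9 CPM in WT and 28.7 to 33.3 in TTP-KO at 2 h, and 5 mast cell genes in the table to 185 to 195 and 122 to 135. In such bulk samples fewer cells of a type and less RNA per cell cannot be told apart, and the part of these cells in the 7 differences was not tested.

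No member passed the test of a difference in response between genotypes, beside 0.0497% of all genes at 2 h and 0.689% at 4 h, and 0.313% for the step from 2 h to 4 h. Unadjusted p was under 0.05 for 9 members at 2 h, 13 at 4 h and 7 for the step from 2 h to 4 h. DESeq2 called none at 2 h or for the step, and at 4 h it called Zfp292 alone. Zfp292 had 63.4, 52.5 and 55.9 CPM in WT control and 57.5, 61.5 and 60.5 at 4 h, and 50.7, 48 and 52.4 and 64.4, 68.4 and 69.8 in TTP-KO. It rose at 4 h in TTP-KO (0.42 ± 0.07 SE, adjusted p = 4.01e-05) and was not called in WT (0.06, adjusted p = 0.56), while edgeR gave the difference between the responses as 0.36 ± 0.10 (SE, adjusted p = 0.121). The next smallest p values were those of Zfp646 (0.35, adjusted p = 0.306) and Zfp143 (-0.43, adjusted p = 0.313) at 4 h, and of Zfp942 (-0.61, adjusted p = 0.55) and Zfp319 (-0.45, adjusted p = 0.566) at 2 h. For the step from 2 h to 4 h they were those of Zfp942 (0.77, adjusted p = 0.145), Zfp704 (0.29, adjusted p = 0.191) and Zfp608 (0.21, adjusted p = 0.416).

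Of the 163 members, 55 were called in none of the 6 comparisons between antigen and control or between the times, 33.7% beside 34.9% of all genes. Of these 55, 33 carry the KRAB pattern, as do 61 of all 163 members, a count not matched for abundance. The log2 fold changes of the 55 in those comparisons ran from -0.56 to 0.82. Their median level was 103 estimated counts, against 150 for the 108 members called at least once. Among them are Zfp148, Zfp335, a regulator of T cell development, Zfp809, and Zfp830, a splicing factor. A p above the threshold does not show that a member did not change.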

How the data were processed

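PolyA RNA was sequenced from 18 basophil libraries, 3 in each of 6 groups. The authors deposited a table of estimated counts per gene (expected counts, not normalized). Per the submitters' processing notes, the tools were RSEM 1.3.1, STAR 2.7.10a and cutadapt 3.5, with R 4.4.0 and 4.4.1, and the build was GRCm39; no roles are given. The annotation release and the strand setting are not given in the sources used here, so reads of overlapping antisense genes cannot be told apart. Columns named as unstimulated were matched to the control OVA samples by genotype and number.

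Estimated counts were rounded, genes with low counts were removed (edgeR filterByExpr, leaving 14076 of 56413), and libraries were scaled by TMM. One edgeR 4.0.16 quasi-likelihood fit (R 4.3.3, limma 3.58.1) over the 6 groups had 12 residual degrees of freedom, with Benjamini-Hochberg adjustment over all genes tested and a threshold of 0.05. On simulated data for TTP-KO against WT control over 14076 genes, this fit recovered 67 of 100 genes changed 1.5-fold and 92 of 100 changed 2-fold, and called 5 others. Totals of 5516580 to 12733172 counts limit the precision of low members.

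The members and lists were chosen with earlier results of these data known. Named are up to 10 called members with the largest rise and fall for each WT comparison whose groups do not overlap, all called members (or the 3 smallest p) between genotypes and for differences in response, the 5 members with the most CPM, 3 on each side of the threshold, up to 4 per role list, and the members whose group means correlate best with the strongest riser and faller. Others that are named fall outside this rule and were chosen after their values were seen. Among them are the promoter neighbours, the runs, Zfp148, Zfp292, the uncalled examples and further genes of the role and KRAB machinery lists. Protein features came from coding sequences of GENCODE M21 (matched for 163 of 163 members), gene order and promoters from RefSeq (GRCm38; 162 matched in gene order). Alternatives were DESeq2 1.42.0, RLE scaling, no filter, a replicate block, fits on the groups compared alone, thresholds of 20 and 200 counts, each library left out and, added after seeing the data, library totals and a looser KRAB pattern.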

Additional observations from a re-analysis of the deposited data

How the results depend on the processing

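The alternatives were followed for 129 member results, which leave out calls that the text only lists by symbol. Of the 129, 102 were called, of which 72 kept the call under every alternative run and 30 lost it under at least 1. Losses among the calls only listed are not in this tally. Zfp330 at 2 h in WT, for example, was not called under library totals (0.00080). Under library totals 3 of the called rises followed changed sign. They were those of Zfp131 (-0.080) and Zfp445 (-0.065) at 2 h in WT and of Zfp655 at 2 h in TTP-KO (-0.044), none of them called there. Values that were not called changed sign too. Under library totals Zfp146 was -0.32, Zfp148 -0.17, Zfp51 -0.20 and Zfp622 -0.25 at 2 h in WT, and Zfp622 was then called lower (adjusted p = 0.0109). Zfp523 was 0.021 from 2 h to 4 h. Zfp292 was -0.066 and Zfp707 -0.049 at 4 h in WT. Zfp146 at 2 h was -0.014 with no expression filter. Zfp598 at 2 h in TTP-KO was 0.018 with RLE scaling, 0.00063 with the replicate block, 0.020 in a fit on the libraries compared alone and 0.016 in DESeq2. Leaving out 1 library gave -0.076 to 0.077 for Zfp598, -0.11 to 0.00080 for Zfp608 between genotypes at 4 h, -0.15 to 0.39 for Zfp146 and -0.054 to 0.27 for Zfp51 at 2 h, and -0.068 to 0.16 for Zfp707 at 4 h. Scaling by library totals gave 13 members higher and 86 lower for WT at 2 h, 15 and 44 at 4 h and 58 and 12 from 2 h to 4 h. For TTP-KO it gave 12 and 102 at 2 h, 15 higher at 4 h, and 72 and 7 from 2 h to 4 h. The balance of higher and lower members thus turned in WT at 4 h and from 2 h to 4 h, beside the shift of the median of all genes under that scaling. That of all genes tested turned too, at 4 h from 2758 higher and 2592 lower to 1879 and 3718. From 2 h to 4 h in WT it went from 2140 and 2242 to 4614 and 1191. With a threshold of 200 estimated counts, which leaves fewer members, the counts were 17 and 9, 15 and 8, and 5 and 15 for the WT comparisons in that order. For TTP-KO they were 8 lower at 2 h, 8 lower at 4 h and 8 higher from 2 h to 4 h. DESeq2 called 13 members higher from 2 h to 4 h in WT, 17 in TTP-KO, and 1 for the difference in the 4 h response (Zfp292); the cause was not tested. Leaving out 1 library gave 1 to 4 members called between genotypes at 2 h and 1 to 2 at 4 h. From 2 h to 4 h it gave 12 to 16 members higher in WT (12 to 13 without WT 2 h library 1 or 2 or WT 4 h library 1 or 2) and 15 to 22 in TTP-KO (15 without TTP-KO 2 h library 1, 17 without TTP-KO 4 h library 3). For the other counts it moved none by more than 1.5 times. Zfp146 lost its rise from 2 h to 4 h in DESeq2 and without any of 5 libraries, Zfp568 without any of 3 and Zfp579 without any of 4. The labels number the libraries, and no shared deviation of same-numbered libraries was seen (correlations from -0.13 to 0.08 over 27 pairs, none over 0.1). With 3 libraries per group this cannot tell if same-numbered libraries share a mouse or a culture. With the replicate block the members called were 68, 56 and 42 for the WT comparisons, 62, 51 and 47 for TTP-KO, and 0, 4 and 4 between genotypes.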
